A study of Homo sapiens with 16 samples.

Results

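In cPt-resistant A2780cis cells, 623 regions carried an H3K27ac peak where A2780 cells had none and also overlapped an H3K9ac peak of A2780cis. H3K27ac peaks of A2780 and A2780cis that shared at least 1 bp were merged on the autosomes into 31493 regions, of which 16641 were over 2000 bp wide. The 623 regions were chosen by 3 peak lists, namely H3K27ac in A2780, H3K27ac in A2780cis and H3K9ac in A2780cis, so their state in these lists is a description. They made up 3.74% of the regions over 2000 bp, and all regions with an H3K27ac peak in A2780cis and none in A2780, called gained here, made up 10.1%. The other 1062 gained regions had no H3K9ac peak in A2780cis.

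The study profiled histone acetylation by ChIP-seq in epithelial ovarian cancer cell lines to compare cPt-sensitive with cPt-resistant cells. A2780 cells, from an ovarian tumor of endometrioid type, respond to cPt and are labelled as untreated. A2780cis cells were made resistant from them, are kept in medium with cPt and are labelled as cisplatin treated. CAOV4, untreated, and CAOV4cis, cisplatin treated, form a second pair of ovarian cancer lines, profiled for H3K27ac only. H3K27ac was also profiled in A2780 cells after 1 week of *MBD3* knockdown with the shRNA shMBD3.26 or shMBD3.232, expressed from a doxycycline-induced vector in cells sorted for GFP. Each of these 8 conditions was 1 library with 1 deposited peak list, so no difference below has a replicate check, and no p-value was computed. Both resistant lines stand for 1 selected line each. The 95% Wilson intervals given with shares cover counting error only. Regions of 1 list share the same library and are not replicates of a condition. The lists give no read depth for any peak.

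Acetylation of lysine 27 of histone H3 marks active enhancers and promoters, and stretches of many acetylated nucleosomes mark large enhancer domains. Acetylation of lysine 9 is found mostly at active promoters and also at strong enhancers. Both marks are written by acetyltransferases and removed by histone deacetylases, among them those of the NuRD complex, of which MBD3 is a subunit that holds the complex together.

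The lists covered chromosomes 1 to 19 of the autosomes, with no peak on chromosomes 20 to 22, and on chromosomes 1 to 12 they stopped short of the end of the chromosome. The last listed positions were 197193000 on chromosome 1, 181094400 on chromosome 2 and 159576400 on chromosome 3. The parts beyond were therefore not assessed, and counts and lengths by chromosome are those of the listed parts. The autosomal H3K27ac lists held between 18936 peaks (shMBD3.232) and 27932 peaks (A2780), with 20245 in A2780cis, and of H3K9ac there were 22438 peaks in A2780 and 15058 in A2780cis. All boundaries lay on a grid of 200 bp, and no peaks of a list were less than 1000 bp apart. Widths, gaps and numbers of peaks within a region are therefore those of the lists, in which nearer peaks may have been joined.

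The gained regions with H3K9ac were broader than those without, and in the range of other regions that carried both marks. Their median width was 5000 bp, with quartiles at 3200 and 10500 bp, against 3200 bp in the gained regions without H3K9ac and 4600 bp in all regions over 2000 bp. Lost regions with H3K9ac in A2780 had a median of 4600 bp, and common regions with H3K9ac, which had an H3K27ac peak in both lines and an H3K9ac peak in A2780cis, one of 6000 bp (quartiles 4000 and 9400 bp). Of the 623 regions, 163 were over 10 kb wide (26.2%, interval 22.9 to 29.8%), whereas 17 of the 1062 gained regions without H3K9ac were (1.60%, 1.00 to 2.55%). Common regions with H3K9ac were over 10 kb in 21.8% of 8911 cases, and lost regions with H3K9ac in 20.8% of 1315. A wide region has more room to meet an H3K9ac peak, so width and the H3K9ac condition are not separate observations. Together the 623 regions spanned 5.80 Mb, of which H3K9ac peaks of A2780cis covered 3.42 Mb (58.9%).

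At the limits of the selection, 33 regions were 2200 bp wide, the smallest width taken, and 39 further gained regions with H3K9ac were 2000 bp wide and left out. H3K9ac covered only 200 bp in 24 of the 623 regions. Of the gained regions without H3K9ac, 48 had an H3K9ac peak no more than 1000 bp away.

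On average H3K9ac lay toward the middle of the gained regions, but it reached an edge in 302 of 623 (48.5%). In common regions with H3K9ac, it did so in 42.0%. The covered share of a region had a median of 54.5% (quartiles 30.8 and 77.8%), and ranged from 1.64% to 100% with 39 regions covered throughout. The midpoint of the region was covered in 397 of 623 regions (63.7%, 59.9 to 67.4%), against 77.8% of common regions with H3K9ac. When each of the 301 regions over 5000 bp was divided into 10 equal parts, mean H3K9ac coverage was 31.0% in the first part, 66.4% in the sixth and 32.0% in the last. The 5321 common regions with H3K9ac of that width had a like profile, with 28.4%, 71.4% and 28.1%. Of the 829 H3K9ac peaks that met a gained region, 580 (70.0%) lay wholly within it. The widest regions carried the most H3K9ac. In the 64 regions over 20 kb, H3K9ac covered 68.7% of the length, compared with 53.1% in the 322 regions of over 2 to 5 kb and 47.7% in the 138 regions of over 5 to 10 kb. In 47 of these 64 regions, the H3K9ac was split into more than 1 peak.

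**Figure D1:**
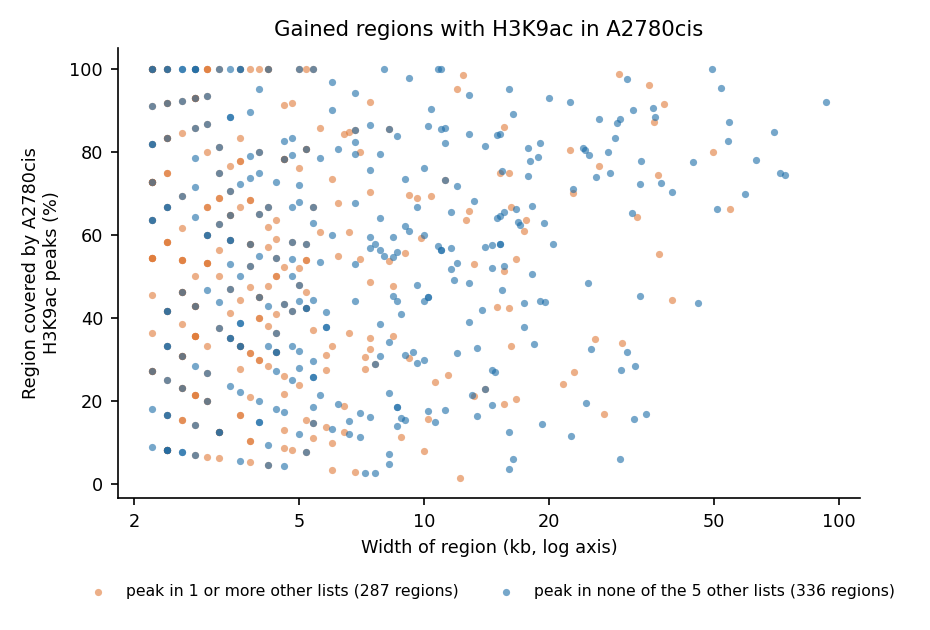
Each point is one of the 623 gained regions with H3K9ac, with its width in kb on a log axis and the share of it covered by A2780cis H3K9ac peaks in percent. Regions with no peak in any of the 5 lists outside the selection (336, blue) reach to 93.2 kb, and those with such a peak (287, orange) gather at narrow widths.

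The widest gained region was chr11:41396201-41489400, in the GRCh37/hg19 coordinates of the lists. It measured 93.2 kb, of which H3K9ac covered 85.8 kb in A2780cis. None of the other 5 lists had a peak in it, and the nearest A2780 H3K27ac peak was 1843.6 kb away. The next in width was chr3:117296001-117370000, at 74.0 kb with 55.0 kb of H3K9ac, and a further region of 59.2 kb, chr3:117235601-117294800, lay directly to its left. The region chr1:70410401-70482400 measured 72.0 kb with 54.0 kb of H3K9ac, and chr18:70196401-70266000 measured 69.6 kb with 59.0 kb of H3K9ac. Chromosome 3 held 5 of the 10 widest regions. Of these 10, 9 had no peak in any list outside the selection, the exception being chr7:80053201-80107800, where 1.2 kb was listed in CAOV4 and 0.4 kb in CAOV4cis out of 54.6 kb.

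Among regions over 5000 bp, 7 were covered by H3K9ac throughout. The widest of these was chr4:136153201-136202600, at 49.4 kb, and the narrowest measured 5.2 kb. Of the 10 most covered, 3 lay near each other on chromosome 6, and the widest of these, chr6:104654601-104684000, had 29.0 kb of its 29.4 kb under H3K9ac and 0.8 kb under an H3K27ac peak with shMBD3.26.

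Some of the gained regions with H3K9ac lay in clusters, about as often as lost regions with H3K9ac. When regions no more than 10 kb apart were joined, 168 of the 623 (26.97%, 23.6 to 30.6%) fell into 71 clusters of 2 or more, compared with 200 of 1062 gained regions without H3K9ac (18.8%, 16.6 to 21.3%) and 378 of 1315 lost regions with H3K9ac in A2780 (28.7%, 26.4 to 31.3%). The cluster with the most covered length was chr7:79928201-80107800, where 5 regions covered 169.2 kb of 179.6 kb, with 120.0 kb of H3K9ac. The other leading clusters were chr11:41368601-41525400 (4 regions, 145.0 kb), chr3:117235601-117370000 (2 regions, 133.2 kb), chr2:53242401-53383200 (5 regions, 127.6 kb) and chr3:94052401-94205000 (7 regions, 123.8 kb). None of these 5 clusters had a peak in A2780 for either mark or with either shRNA. Peaks of the CAOV4 lines were found in the chromosome 7 cluster alone, over 1.2 kb in CAOV4 and 0.4 kb in CAOV4cis. The nearest merged region on each side, of any width, was a gained one for 723 of 1246 neighbors (58.0%). Of all 31493 merged regions, 17.8% were gained. Neighbors were not counted for the other classes, so this is not shown to be particular to the 623 regions.

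Gained regions with H3K9ac lay farther from the H3K27ac peaks of A2780 than gained regions without. Neither class overlaps such a peak by the selection, so the distances are a description. For the 623 regions, the median distance to the nearest A2780 H3K27ac peak was 36.4 kb (quartiles 9.2 and 186.8 kb), against 10.4 kb for gained regions without H3K9ac. It lay beyond 100 kb for 202 of 623 regions (32.4%, 28.9 to 36.2%) and for 205 of 1062 (19.3%, 17.0 to 21.8%). Within the class of over 2 to 5 kb in width, the medians were 22.1 and 9.6 kb, and within that of over 5 to 10 kb they were 45.5 and 14.6 kb. At the other end, 96 of the 623 regions (15.4%) had an A2780 peak no more than 5 kb away, against 383 of 1062 (36.1%). Of the 623 regions, 2 touched an A2780 peak without sharing a base, and another 15 had one within 1 kb.

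**Figure D2:**
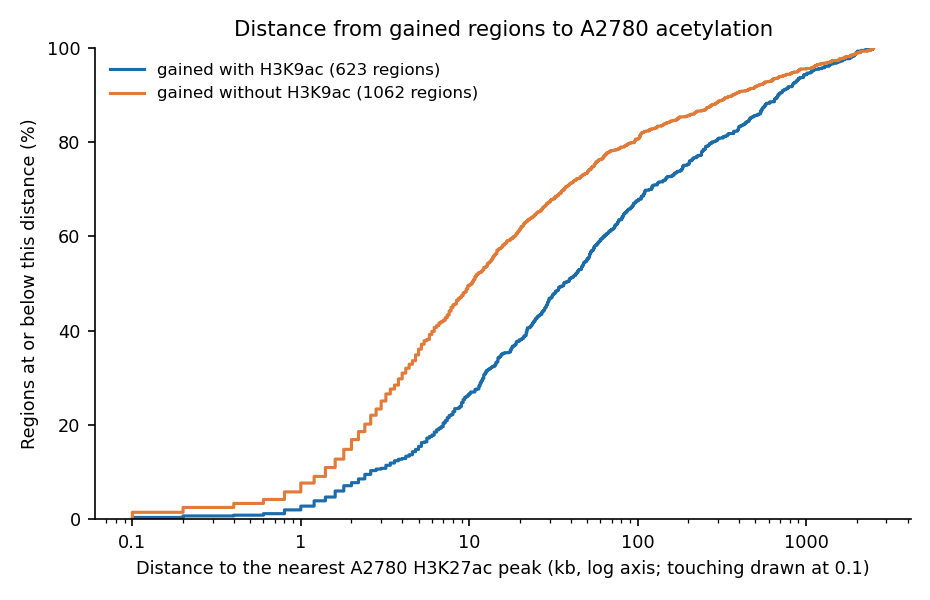
The share of gained regions, in percent, that lie at or below a given distance in kb (log axis) from the nearest A2780 H3K27ac peak. The curve of the 623 regions with H3K9ac (blue, median 36.4 kb) runs to the right of that of the 1062 without (orange, median 10.4 kb).

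The regions were unevenly spread. Per 100 H3K27ac peaks of A2780cis, chromosome 18 had 6.35 gained regions with H3K9ac (4.30 to 9.27), chromosome 6 had 5.34 (4.08 to 6.97) and chromosome 3 had 5.03 (3.90 to 6.46), where all autosomes together had 3.08. Chromosome 19 had the fewest, at 0.572 (10 regions on 1749 peaks, 0.311 to 1.05), followed by chromosome 13 with 1.31 (4 regions on 306 peaks, 0.509 to 3.31). By length, chromosome 3 held the most, at 0.843 Mb of the 5.80 Mb, although chromosome 1 had the most regions, at 73.

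Sensitive A2780 cells rarely carried H3K9ac at these places. An H3K9ac peak of A2780, a list outside the selection, overlapped 70 of the 623 regions (11.2%, 8.99 to 14.0%). In common regions with H3K9ac the share was 85.9% (85.2 to 86.6%), and in all regions over 2000 bp it was 62.9%. An A2780 H3K27ac peak is present in common regions by definition and in 89.9% of all regions. Both contrasts therefore follow in part from the selection. Where A2780 H3K9ac was present it was small, at a median of 800 bp or 15.3% of the region, and 17 of the 70 regions had only 200 bp. The widest of them was chr4:107178401-107215200, with 0.8 kb of A2780 H3K9ac in 36.8 kb, against 20.4 kb in A2780cis. The others among the 5 widest had between 0.2 and 1.6 kb. In all, A2780 H3K9ac peaks covered 1.29% of the length of the 623 regions. For a gained region without H3K9ac in A2780cis, the share with A2780 H3K9ac was 8.95%, and the difference from the 623 regions was 2.29 percentage points (interval -0.631 to 5.43), within counting error.

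*MBD3* knockdown gave few H3K27ac peaks at the gained regions with H3K9ac. With shMBD3.26, 119 regions had a peak (19.1%, 16.2 to 22.4%), and with shMBD3.232, 63 had one (10.1%, 7.98 to 12.7%). Both shRNAs had a peak in 33 regions, or 5.30%, whereas 69.5% of all regions over 2000 bp did. Of all these regions, 89.9% had an H3K27ac peak in A2780, and gained regions have none by definition. The contrast with all regions therefore follows in part from the selection. Among the 1062 gained regions without H3K9ac, which lack an A2780 peak as well, 85 had a peak with both shRNAs. In that class, 20.6% had one with shMBD3.26 and 16.5% with shMBD3.232. In regions lost in A2780cis that carried H3K9ac in A2780, and so had an A2780 H3K27ac peak by definition, the shares were 75.4% and 69.9%. With each list held to the same number of its widest peaks, the shares in gained regions with H3K9ac were 31.4% and 32.4%, so both depend on which peaks are kept. The widest gained region with both shRNAs was chr14:46477201-46494600, where 1.8 kb was listed with shMBD3.26 and 6.2 kb with shMBD3.232 out of 17.4 kb. At chr10:63457401-63465600, 4.6 kb and 3.8 kb of 8.2 kb were listed. The other 3 of the 5 widest, on chromosomes 17, 12 and 10, had between 0.2 and 2.4 kb with either shRNA. Of the length of all 623 regions, peaks with shMBD3.26 covered 2.53% and those with shMBD3.232 covered 1.79%. A peak in a shRNA list where A2780 had none cannot be told apart from a difference between libraries of the same cells, since cells with a control shRNA were not analysed here.

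The second pair of lines had H3K27ac at a minority of the regions, with shares of 19.7% in CAOV4 (123 regions, 16.8 to 23.1%) and 23.4% in CAOV4cis (146 regions, 20.3 to 26.9%). Among all regions over 2000 bp, the shares were 52.1% and 52.7%. The shares in the 623 regions were close to those in lost regions with H3K9ac, at 19.8% and 21.6%. They were far from the 74.4% and 74.0% in common regions with H3K9ac. Both CAOV4 lists had a peak in 89 of the 623 regions (14.3%), against 43.7% of all regions over 2000 bp. CAOV4cis alone had one in 57 and CAOV4 alone in 34. The 57 regions present in resistant and not in sensitive CAOV4 cells made up 9.15% (7.13 to 11.7%), near the 9% among all regions over 2000 bp. The 34 with the opposite pattern made up 5.46% (3.93 to 7.53%), against 8.39% among all regions. Peaks of the CAOV4 lines filled more of a region than those of the A2780-derived lists. Where present, CAOV4 peaks covered a median of 53.8% of the region and CAOV4cis peaks 49.7%, compared with 25% for shMBD3.26 and 33.3% for shMBD3.232.

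In the 57 regions with CAOV4cis peaks alone, these peaks covered a median of 18.8% of the region (quartiles 13.0 and 58.3%), and in the 89 with peaks in both lists CAOV4cis peaks covered 68.4%. The 5 widest of the 57 had between 0.2 and 2.4 kb of CAOV4cis H3K27ac, with the most at chr4:107163001-107177000, in 14.0 kb. Of the 5 widest with peaks in both CAOV4 lists, 2 lay in a window around *RAD51B* described below. The third, chr11:110215001-110251600, had 6.6 kb in CAOV4 and 1.2 kb in CAOV4cis out of 36.6 kb. At chr7:79759601-79775600, 1.6 kb was listed in CAOV4 and 6.0 kb in CAOV4cis out of 16.0 kb.

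**Figure D3:**
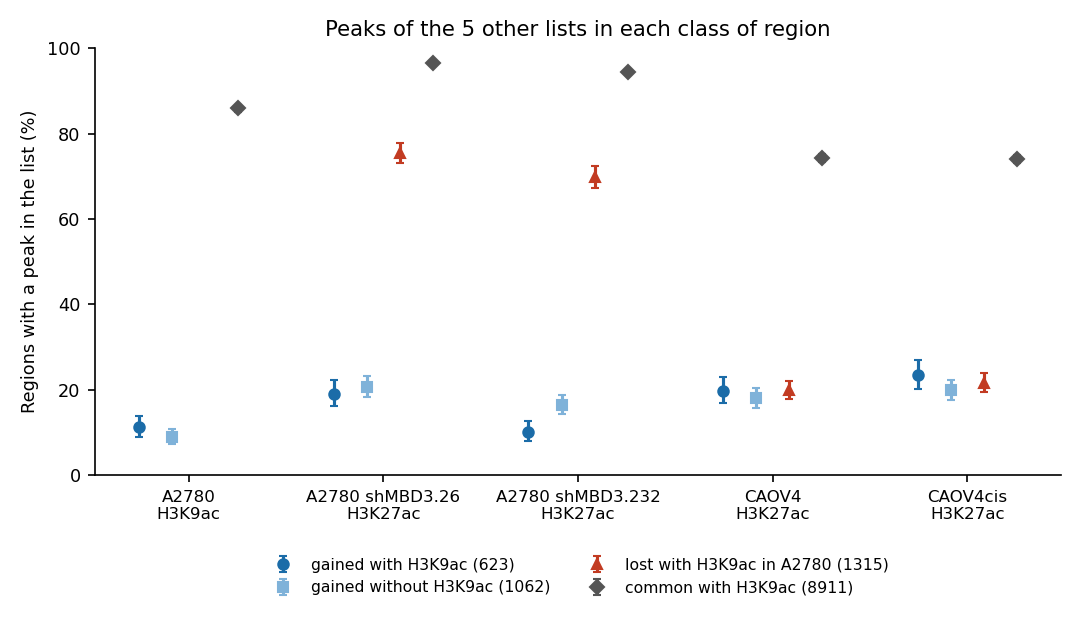
Percent of regions with a peak in each of the 5 lists outside the selection, for 4 classes of region over 2000 bp, with 95% Wilson intervals. Gained regions with H3K9ac (blue circles) lie between 10.1% and 23.4%, common regions with H3K9ac (grey diamonds) between 74.0% and 96.5%, and the A2780 H3K9ac share of lost regions is left out because it defines them.

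More than 50% of the regions were found in A2780cis alone. Of the 623, 336 (53.9%, 50.01 to 57.8%) had no peak in any of the 5 lists outside the selection. The share was 10.7% in all regions over 2000 bp and 0.920% in common regions with H3K9ac. Common regions have an A2780 H3K27ac peak by definition. The next most frequent pattern was a peak in both CAOV4 lists and none in the A2780-derived lists, in 50 regions, followed by shMBD3.26 alone in 43, CAOV4cis alone in 31 and A2780 H3K9ac alone in 27. When each list was held to the same number of its widest peaks, 1390 regions met the selection, of which 22.7% had A2780 H3K9ac. Gained regions without H3K9ac had no peak in the 5 lists in 51.6% (48.6 to 54.6%), and the intervals of both classes overlapped.

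Gained regions with H3K9ac over 10 kb were listed in other cells less often than those of over 2 to 5 kb. The share with no peak in any of the 5 lists was 41.6% in regions of over 2 to 5 kb, 60.1% in those of over 5 to 10 kb, 73.7% in those of over 10 to 20 kb (64.3 to 81.4%) and 71.9% in those over 20 kb (59.9 to 81.4%). The share also rose with width in gained regions without H3K9ac. There it was 50.1% of 904 regions of over 2 to 5 kb, 58.2% of 141 of over 5 to 10 kb and 73.3% of 15 of over 10 to 20 kb. In all merged regions over 20 kb it was 6.97%. Of those regions, 91.0% had an A2780 H3K27ac peak, which gained regions lack by definition. Among gained regions with H3K9ac, an H3K27ac peak with shMBD3.26 was found in 25.2% of the narrowest class and 9.38% of the widest. CAOV4cis had one in 31.4% and 4.69%. By contrast, H3K9ac of A2780 changed little with width, at 12.1% and 10.9%. Of the 98 lost regions over 20 kb with H3K9ac in A2780, all 98 had a peak with shMBD3.26 and 94 with shMBD3.232. Of the 64 gained regions of that width with H3K9ac, 6 and 3 did. Lost regions have an A2780 H3K27ac peak by definition and gained regions have none, so this contrast follows in part from the selection. CAOV4 peaks covered 15.6% of the length of the narrowest class and 1.76% of the widest.

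**Figure D4:**
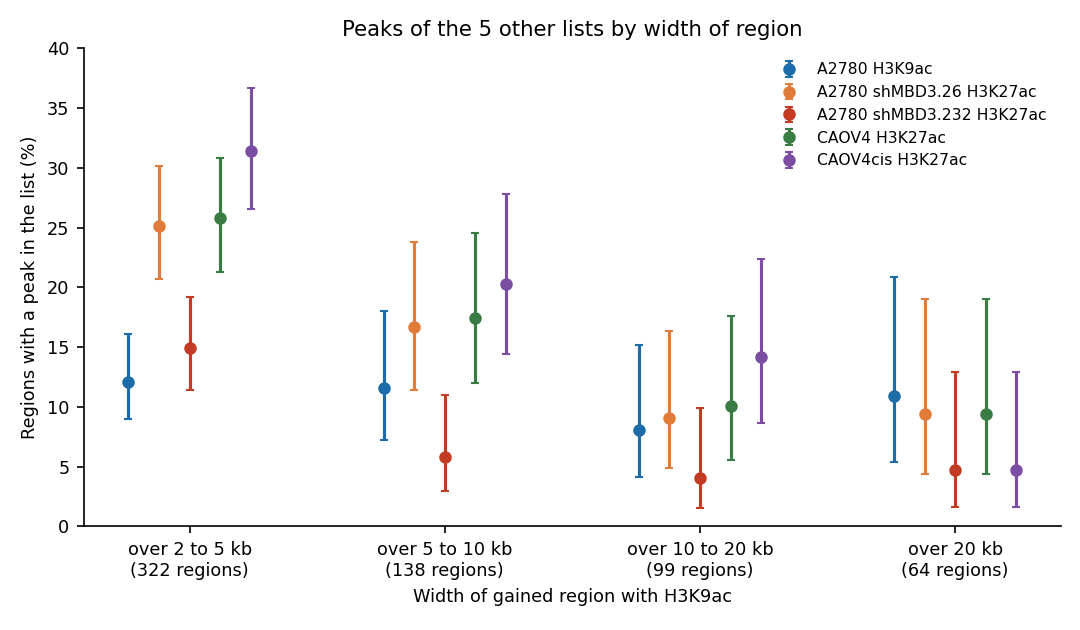
Percent of the gained regions with H3K9ac that have a peak in each of the 5 lists outside the selection, in 4 classes of width, with 95% Wilson intervals. In CAOV4cis (purple) the share is 31.4% of 322 regions in the narrowest class and 4.69% of 64 in the widest, and A2780 H3K9ac (blue) stays between 8.08% and 12.1%.

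Compared with gained regions without H3K9ac, the selected regions differed in 1 of the 5 lists when all widths were pooled: the difference in the share with shMBD3.232 was -6.37 percentage points (Newcombe interval -9.54 to -3.00). The differences in the other 4 lists had intervals that included 0. Within the class of over 2 to 5 kb, where 322 and 904 regions are alike in width, the regions with H3K9ac had more CAOV4cis peaks, at 31.4% against 20.4% (difference 11.0 points, 5.46 to 16.8), and more CAOV4 peaks, at 25.8% against 18.6% (7.19 points, 1.99 to 12.8). The shMBD3.232 difference was -1.02 points there (-5.32 to 3.83), and -14.8 points (-22.7 to -6.93) in the class of over 5 to 10 kb, with 138 and 141 regions. The classes over 10 kb held only 15 and 2 gained regions without H3K9ac, too few to compare.

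Gained regions with H3K9ac lay in windows around 4 loci that the study draws, at *FGF10*, which encodes a fibroblast growth factor that signals to epithelial cells, *JAK1*, a tyrosine kinase of cytokine receptors, *RAD51B*, a gene of homologous recombination, and *LINC00871*, a long non-coding RNA gene. The windows are described by the name the study gives them, and which exons or introns the regions cover was not looked up, because an annotation of GRCh37/hg19 was not used here. To show what kind of sequence lies at a start of each gene, the 300 bases around the first listed start of each gene are printed from RefSeq, build GRCh38.p14, 5′ to 3′ on the strand of the gene. Capitals mark matches on either strand to any of 4 motifs, which may overlap. TGANTCA was searched for the AP-1 factors. GGAATG was the motif used for the TEAD factors. CANNTG is the E-box of basic helix-loop-helix factors. AGATAA served for the GATA factors. Whether these bases fall within a gained region was not determined, since the lists use another build.
FGF10 promoter, chr5:44389371-44389670, minus strand: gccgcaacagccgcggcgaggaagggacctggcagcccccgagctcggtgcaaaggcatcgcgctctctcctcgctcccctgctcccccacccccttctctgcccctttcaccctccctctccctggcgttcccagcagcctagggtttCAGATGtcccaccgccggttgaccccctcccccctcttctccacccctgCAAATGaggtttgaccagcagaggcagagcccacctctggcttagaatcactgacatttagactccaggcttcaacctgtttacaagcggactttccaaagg
JAK1 promoter, chr1:65067697-65067996, minus strand: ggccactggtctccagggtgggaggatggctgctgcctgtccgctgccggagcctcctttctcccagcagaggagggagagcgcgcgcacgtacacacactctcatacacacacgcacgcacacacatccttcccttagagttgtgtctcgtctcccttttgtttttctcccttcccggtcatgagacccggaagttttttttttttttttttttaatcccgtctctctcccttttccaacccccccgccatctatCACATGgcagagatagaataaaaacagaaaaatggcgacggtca
LINC00871 promoter, chr14:46471109-46471408, plus strand: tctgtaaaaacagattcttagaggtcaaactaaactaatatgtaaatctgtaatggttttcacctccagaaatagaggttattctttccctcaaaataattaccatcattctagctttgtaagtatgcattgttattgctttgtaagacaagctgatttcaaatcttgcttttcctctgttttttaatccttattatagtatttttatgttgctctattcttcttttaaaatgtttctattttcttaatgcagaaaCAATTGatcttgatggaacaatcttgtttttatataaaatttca
RAD51B promoter, chr14:67823291-67823590, plus strand: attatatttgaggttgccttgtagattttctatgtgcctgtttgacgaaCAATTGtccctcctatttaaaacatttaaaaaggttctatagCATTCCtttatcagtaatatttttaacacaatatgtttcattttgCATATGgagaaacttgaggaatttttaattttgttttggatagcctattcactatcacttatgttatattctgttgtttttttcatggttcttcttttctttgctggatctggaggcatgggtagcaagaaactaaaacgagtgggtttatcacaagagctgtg

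The FGF10 promoter was 62.3% G and C with 13 CpG dinucleotides, near the median of 14 over 35116 RefSeq promoters, and the LINC00871 promoter was 27.3% G and C with 0 CpG. The 300 bases printed for RAD51B had 2 CpG and 32.3% G and C, and those printed for JAK1 had 15 CpG. Promoter here means the bases around a listed start. The RAD51B bases end in a run that opens with ATG and has no stop codon in that frame. Part of them may therefore be coding sequence, and whether they act as a promoter was not tested. An E-box was found in each of the 4 printed promoters, as in 68.7% of all promoters. A TEAD match was found in that of RAD51B, as in 14.0% of all promoters. RefSeq lists 3 starts for JAK1 and 2 for RAD51B, and the first of each is printed. The printed JAK1 bases lie apart from those of the second start (chr1:64966887-64967186) and the third (chr1:64966500-64966799), which are close together. The second RAD51B stretch overlaps the printed one and also had 2 CpG, an E-box and a TEAD match. For JAK1, the second start had 9 CpG, an E-box and a TEAD match. The third JAK1 start had 43 CpG, more than in 95.02% of all promoters, and none of the 4 motifs. None of the 4 printed promoters held the AP-1 or GATA letters, which 7.71% and 10.3% of all promoters held.

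Of the 4 windows, that of *RAD51B* was the one where the CAOV4 lines had peaks in gained regions with H3K9ac. The windows differ in length. Such regions took up 39.6% of the 323.5 kb at *RAD51B* and 38.6% of the 136.3 kb at *FGF10*. They took up 48.4% of the 54.5 kb at *LINC00871* and 8.95% of the 93.9 kb at *JAK1*. The study drew these loci from the same libraries, so the shares describe the chosen windows and not the genome. The *RAD51B* window held 12 gained regions with H3K9ac, 128.0 kb in all, with 5 common regions among its 23 merged regions. In these 5 common regions, A2780 H3K27ac peaks covered between 0.6 and 5.2 kb, against 11.4 to 26.2 kb in A2780cis. H3K9ac of A2780cis covered 82.6 kb of the 12 regions (64.5%). In CAOV4, 9 of the 12 had an H3K27ac peak, over 69.6 kb (54.4%), and in CAOV4cis 9 had one, over 51.2 kb. With shMBD3.26, 2 had a peak over 0.6 kb, and with shMBD3.232 none had. The widest, chr14:68427201-68462000, measured 34.8 kb, with 33.4 kb of H3K9ac in A2780cis and 0.2 kb in A2780, and with 28.8 kb of H3K27ac in CAOV4 and 17.2 kb in CAOV4cis. CAOV4 peaks covered all 17.6 kb of chr14:68602001-68619600, and CAOV4cis peaks covered 15.6 kb of it. In contrast, chr14:68374001-68389600, at 15.6 kb, had no CAOV4 peak.

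The *FGF10* window had no peak in A2780 or in either CAOV4 list within its gained regions. It held 2 gained regions with H3K9ac, chr5:44326601-44349200 (22.6 kb) and chr5:44370801-44400800 (30.0 kb), and 6 gained regions without. H3K9ac covered 2.6 kb of the smaller region (11.5%) and 10.2 kb of the larger (34%), both below the median of the 623 regions. The larger region had 0.2 kb with shMBD3.26, and no list other than those of A2780cis had a peak in the smaller one. In the *LINC00871* window, the single gained region chr14:46789001-46815400 measured 26.4 kb, with 20.2 kb of H3K9ac (76.5%) and 1.0 kb with shMBD3.26, and the other 4 lists outside the selection had no peak in it. In the *JAK1* window, chr1:65397001-65402000 and chr1:65405601-65409000 were gained with H3K9ac over 3.4 kb each, and none of the 5 other lists had a peak in them. The widest H3K27ac region of that window, chr1:65410201-65435800, had a peak in A2780 and A2780cis and so is not counted among the 623. In A2780cis, H3K27ac covered all its 25.6 kb and H3K9ac 16.2 kb. In A2780, H3K27ac covered 1.2 kb of it and no H3K9ac peak was listed.

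**Figure D5:**
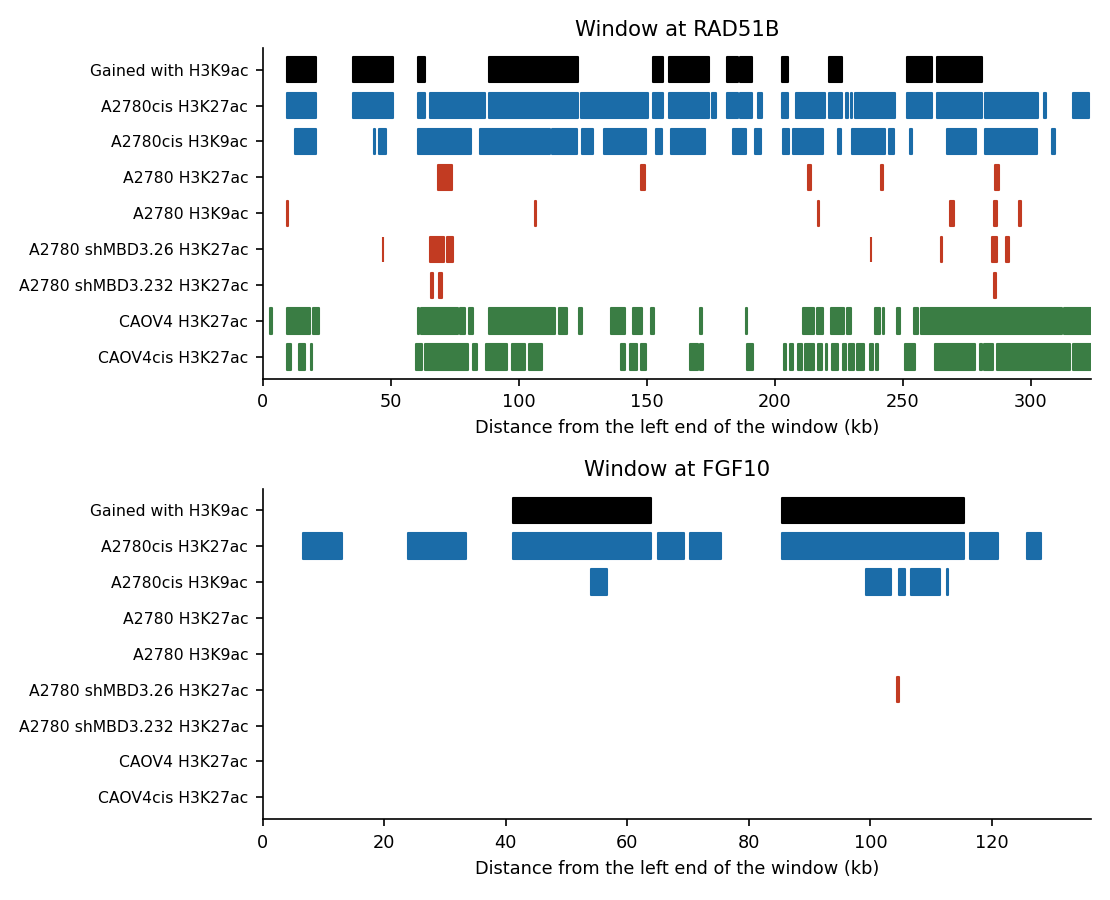
Peaks of the 8 lists (rows) in the windows at *RAD51B* and *FGF10*, by distance in kb from the left end of the window, with the gained regions with H3K9ac in black at the top. CAOV4 and CAOV4cis peaks (green) lie in 9 of the 12 regions at *RAD51B* each and in neither of the 2 at *FGF10*.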

How the data were processed

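Mononucleosomes from MNase digestion, with *D. melanogaster* spike-in, were precipitated with antibodies against H3K27ac or H3K9ac. Per the methods of the study, the authors used Bowtie2 for alignment, a quantile normalization of their own and MACS2 for peak calling, and the submitters' processing notes name GRCh37 (hg19). Tool versions are not given in the sources used here. The authors deposited 1 peak list per library, with positions as the only measurement. Scores are 0 throughout, so peaks have no height, depth is unknown, and a peak just under the calling threshold in 1 library appears as absent. Control-shRNA and input libraries were not analysed here.

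H3K27ac peaks of A2780 and A2780cis sharing 1 bp were merged, and regions were classed by the lists with a peak in them, with Python 3.11.15, numpy 2.4.6, SciPy 1.17.1 and matplotlib 3.10.9. The classing was tested on simulated data. Shares have 95% Wilson intervals and differences Newcombe intervals, for counting error only. Regions named are the widest, the most covered by H3K9ac, the widest with a peak in other lists, the leading clusters, the chromosomes with the most and fewest, and the windows at *FGF10*, *JAK1*, *LINC00871* and *RAD51B*, read from the study's drawings. The regions, lists and windows were chosen with earlier results of these data known. Alternatives changed the width limit, the distance to A2780 peaks, the overlap, the peaks kept, the chromosomes and the stitching distance. Distances to start sites, gene lists and the bases of the regions need a genome and an annotation of GRCh37/hg19 and were not analysed here.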

Additional observations from a re-analysis of the deposited data

Results flagged for a closer look

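Chromosome X was outside the selection, and 21 of its 482 merged regions over 2000 bp (4.36%) met the other conditions, with a median width of 5000 bp. The widest, chrX:13295201-13324600, measured 29.4 kb. Of the 21 regions, 3 had an H3K9ac peak in A2780, 7 an H3K27ac peak with shMBD3.26, 4 with shMBD3.232, 7 in CAOV4 and 5 in CAOV4cis. On the autosomes, 3.74% of merged regions over 2000 bp met the conditions.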

How the results depend on the processing

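Of 46 alternatives, 26 left a value within a set limit and 20 did not. The limit was the 95% interval for shares of regions and 1.5 times for counts. For the share of length covered by H3K9ac it was 1 standard deviation of that share over regions. By this wide limit, a move from 58.9% to 76.3% in regions with H3K9ac over at least 50% counted as within it. The number of regions, 623, came to 301 over 5000 bp, 347 with H3K9ac over at least 50% of the region, and 1390 when each list was held to its 15058 widest peaks. In that last setting, which removes the narrow peaks of A2780 from the comparison, 22.7% had A2780 H3K9ac, 28.1% a peak in CAOV4, 29.9% in CAOV4cis, 31.4% with shMBD3.26 and 32.4% with shMBD3.232, so the counts of regions absent from other lists depend on how many peaks each list holds. Over 5000 bp the shares were 13.3% in CAOV4, 15.0% in CAOV4cis, 12.6% with shMBD3.26 and 4.98% with shMBD3.232. With no A2780 H3K27ac peak within 5 kb they were 15.6% with shMBD3.26 and 6.97% with shMBD3.232. With the wider 50% of each list, A2780 H3K9ac was at 17.2% and shMBD3.26 at 16.2%. The share of regions in clusters was 19.7% at a distance of 5 kb and 36.9% at 25 kb. In regions with no peak in any A2780-derived list outside the selection, an alternative chosen after seeing the data, CAOV4 was at 16.0% and CAOV4cis at 18.5%. Leaving out chromosome 1, which had the most regions, moved none of the 6 shares tested beyond its interval. An overlap of 50% of the shorter of region and peak left the 5 shares with a peak in another list within their intervals. Distances to start sites were not run. No paired analysis was possible because each condition was 1 library and no test was made. Depth is unknown, so a peak absent from a list was not called there and is not shown to be absent from the cells.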
